A study of Mus musculus with 18 samples.

Results

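The trimethyl mark on lysine 27 of histone H3 (H3K27me3) was compared between the medial ganglionic eminence (MGE) of Ezh2 knockout (KO) and wild-type (WT) mouse embryos at E12.5, in mid-gestation, when MGE progenitors divide and the earliest interneurons leave. The comparison used 6 of the 18 samples of the series, 3 labelled WT and 3 labelled KO, each with its own list of called intervals. The other 12 samples are heterozygotes or come from E15.5 and were not analysed here. The KO embryos are titled Nkx2.1-CreC/+;Ezh2;Ai9F/+, and the control embryos WT. Per the study's design text the sires were Nkx2.1-CreC/C;Ezh2F/+ and the dams Ai9F/F;Ezh2F/+, so by this cross every embryo, WT included, carries the Nkx2.1-Cre allele and the Ai9 reporter allele. Cre is driven from Nkx2-1, a gene of MGE progenitors, and Ai9 is a Cre-dependent red fluorescent reporter. At E12.5 the whole MGE was taken without selection for the reporter, and MGEs of like genotype could be pooled before nuclei were isolated, so cells that never expressed Cre can be in every library. The number of embryos behind a library is not given in the sources used here. In edgeR's test the spread between these libraries was estimated largely over all genes together. A p-value from it therefore does not measure a gene's own spread alone.

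H3K27me3 is deposited by Polycomb repressive complex 2, in which Ezh2 and its paralogue Ezh1 are the alternative catalytic subunits. The mark lies over the promoters of developmental regulators that a cell type keeps silent, and it is diluted as cells divide unless it is copied. The MGE is the ventral forebrain zone that produces cortical interneurons expressing somatostatin or parvalbumin, under Nkx2-1 and the Sonic hedgehog signal. In bulk CUT&Tag, an antibody brings the transposase Tn5 to the mark, so the reads that fall in a called interval report how much of the mark lies there relative to the library. No spike-in was used for scaling here, so the total amount of the mark per cell was not measured.

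Each list gives intervals on a 200 bp grid with a read count. The lists held 4575 to 10730 autosomal intervals with 1065512 to 6802137 reads. Depth, given as the mean count per 200 bp window, was 0.117, 0.698 and 0.481 in WT replicates 1, 2 and 3 (WT1, WT2 and WT3) and 0.212, 0.272 and 0.243 in KO replicates 1, 2 and 3 (KO1, KO2 and KO3). WT1 was thus the shallowest library, and WT2 and WT3 the deepest. Counts below were multiplied by the mean depth of all 6 libraries over the library's own depth. A gene's count is the sum over the union regions (intervals of all 6 lists merged) that touch its body or 2.5 kb on either side. Of 20665 autosomal protein-coding genes, 7194 had an interval in some list and 3419 had one in all 6 lists. The 3419 genes, which rest on 2980 distinct sets of regions, were tested. Ezh2 itself had no interval in any list, so the deletion cannot be checked from these files, and 0 of the 18 autosomal housekeeping genes listed could be tested.

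The H3K27me3 count fell in KO at 174 of the 3419 genes (5.09%), which rest on 165 region sets, and rose at 5 (0.146%), by edgeR's quasi-likelihood test at an adjusted p below 0.05. The genes that fell most were Tgfbr3, Gli3, Iqch, Foxp4 and Itm2b, and Nkx2-1, the driver gene of the Cre line, was among the 5 that rose. The median log2 change of all genes tested was -0.54, and all 3 KO libraries lay below all 3 WT libraries at 1084 genes (31.7%) and above them at 14 (0.409%). Of the 174 lower genes, 159 had groups that did not overlap. Scaling by edgeR's TMM factors, which centre the shared genes, moved the median to -0.04 and gave 87 lower genes (2.54%) and 50 higher (1.46%). With these factors 83 of the 174 remained lower, so the split between lower and higher genes depends on the scaling while a core of lower genes does not.

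Single libraries moved these counts. Without KO3 1646 genes were lower, and without WT2, WT3 or KO2 48, 47 and 65 were. There were 39 genes that stayed lower whichever library was left out, and 36 of them were also lower with TMM factors. Those 39 include Foxp4, Tgfbr3, Boc, Gli2, Gli3, Fzd7, Slit3, Lingo1, Maf and Ebf1.

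The length of the called intervals moved with the counts. Over the 174 lower genes the median ratio of covered length, WT to KO, was 2.25, against 1.32 over all genes tested, and the ratio of counts per covered kb was 1.29 against 1.08. With each library's covered length as an offset, 0 genes passed in edgeR's test, with 72 at an unadjusted p below 0.05. With that offset and TMM factors together, an alternative added after the data were seen, 12 were lower, among them Foxp4, Islr2, Smyd3, Fzd7, Boc and Six3, and 8 higher, among them Nkx2-1, Rhbg and Ahi1. WT2 and WT3 are deeper than every KO library, and their autosomal intervals covered 70.2 and 51.7 Mb in all, against 28.3 Mb in WT1 and 32.1 to 33.0 Mb in KO. WT1, shallower than every KO library, covered more than each of them at 79 of the 174 lower genes (45.4%), against 483 of 3419 tested (14.1%). Its unscaled read count was above that of every KO library at 34 of the 174 (19.5%), against 36 of 3419 (1.05%). The 174 were chosen on counts that include WT1, so these shares are a description. Depth and genotype cannot be told apart where only WT2 and WT3 stand out.

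**Figure D1:**
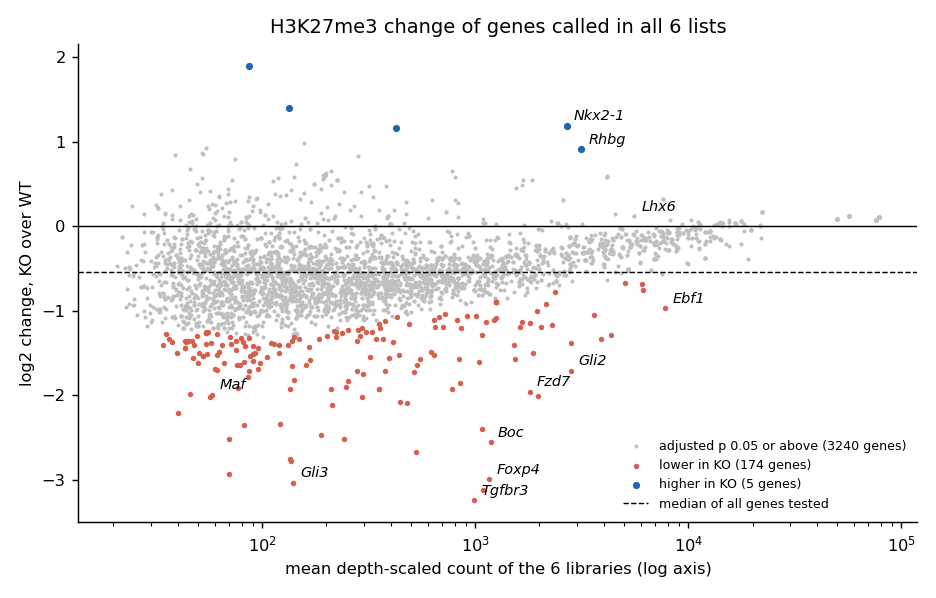
Each point is 1 of the 3419 genes tested, with its mean depth-scaled count over the 6 libraries (x axis, log) and its log2 change, KO over WT (y axis). The 174 lower genes are red, the 5 higher genes blue, and the dashed line is the median of -0.54. Genes of the highest counts lie near 0.

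The median change differed between levels of the summed count, which also grows with the width of the regions. Of the 125 genes with a mean count over 10000, which rest on 69 region sets, 0 fell and 0 rose in edgeR's test, and their median log2 change was 0.03. Among the 671 genes between 1000 and 10000 the median was -0.35 and 37 fell (5.51%), and Gli2, Fzd7 and Nkx2-1 belong here. The 1676 genes between 100 and 1000 had a median of -0.62 with 75 lower (4.47%), and the 947 genes under 100 a median of -0.61 with 62 lower (6.55%). Below a count of 10000 the shares of lower genes thus lie near the 5.09% of all genes. With TMM factors the 4 medians were 0.54, 0.15, -0.12 and -0.10 in the same order. The sign thus turned with the scaling between 1000 and 10000 alone. With covered length as an offset the 4 medians were 0.09, -0.11, -0.14 and -0.03, and most of the difference between levels was gone.

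Foxp4 was among the genes that fell most. Foxp4 is a forkhead transcription factor gene, chromosome 17, 47867133 to 47924632 of GRCm38. Its count was 1571, 2753 and 1845 in the WT libraries and 194, 276 and 307 in the KO libraries. The groups stand far apart, with every KO library below the lowest WT library. The log2 change was -2.99 ± 0.32 (edgeR adjusted p = 2.14e-17, n = 3 and 3 libraries), and it was -2.47 with TMM factors. Here and below, the ± of a log2 change is an SE derived from edgeR's test statistic. It rests on the spread estimated over genes together, not on the gene's own replicates alone. In WT1 a single block ran from upstream of the start site into the gene, and intervals covered 36 kb, against 61.8 and 48 kb in WT2 and WT3 and 17.2, 14.8 and 13 kb in KO. The count per covered kb was also lower, at 43.6, 44.5 and 38.4 in WT and 11.3, 18.7 and 23.6 in KO. Both the length and the density therefore separate the genotypes here, the shallow WT1 included.

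The promoters of Foxp4 and of 3 other genes described below are shown because their called regions hold the start site and moved in KO, 3 down and 1 up. Each is the 250 bases before the start site, 5′ to 3′ on the gene's strand, from RefSeq (GRCm38.p6), with every CG in capitals. Dense CG is a known feature of promoters that Polycomb occupies.
Foxp4: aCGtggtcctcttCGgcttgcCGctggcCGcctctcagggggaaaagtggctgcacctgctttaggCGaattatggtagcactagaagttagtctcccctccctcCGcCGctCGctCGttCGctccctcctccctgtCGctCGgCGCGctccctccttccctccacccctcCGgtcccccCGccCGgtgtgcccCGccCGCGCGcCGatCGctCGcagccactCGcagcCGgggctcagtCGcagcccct
Gli2: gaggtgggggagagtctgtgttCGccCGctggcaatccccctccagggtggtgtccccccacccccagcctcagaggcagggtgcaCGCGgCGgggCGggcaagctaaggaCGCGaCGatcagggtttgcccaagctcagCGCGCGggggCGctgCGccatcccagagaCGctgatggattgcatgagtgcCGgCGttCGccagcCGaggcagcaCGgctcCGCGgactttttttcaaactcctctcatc
Fzd7: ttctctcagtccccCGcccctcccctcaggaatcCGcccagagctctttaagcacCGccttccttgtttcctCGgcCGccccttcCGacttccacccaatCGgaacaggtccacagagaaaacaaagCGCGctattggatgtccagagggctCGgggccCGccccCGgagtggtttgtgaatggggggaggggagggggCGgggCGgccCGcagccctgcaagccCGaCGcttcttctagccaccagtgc
Nkx2-1: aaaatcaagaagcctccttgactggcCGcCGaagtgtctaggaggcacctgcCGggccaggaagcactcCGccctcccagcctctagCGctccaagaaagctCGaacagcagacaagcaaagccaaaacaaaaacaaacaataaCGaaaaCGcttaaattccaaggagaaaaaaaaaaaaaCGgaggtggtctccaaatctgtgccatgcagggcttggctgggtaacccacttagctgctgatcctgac
They lie at chr17:47924633-47924882 (minus strand), chr1:119053620-119053869 (minus), chr1:59481897-59482146 (plus) and chr12:56536909-56537158 (minus). The Foxp4 promoter holds 27 CG, and 10.7% of the 16457 autosomal genes with a promoter sequence have as many or more. Gli2 has 22 (19.6% of genes), Fzd7 17 (32.4%) and Nkx2-1 9 (54.5%), so the promoter of the gene that rose is the poorest in CG of these 4. Over all genes CG did not set the lower genes apart from the other tested ones. The median was 14.5 in the 138 lower genes with a sequence and 14 in 2572 tested genes, against 7 in 10889 genes without an interval in any list.

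**Figure D2:**
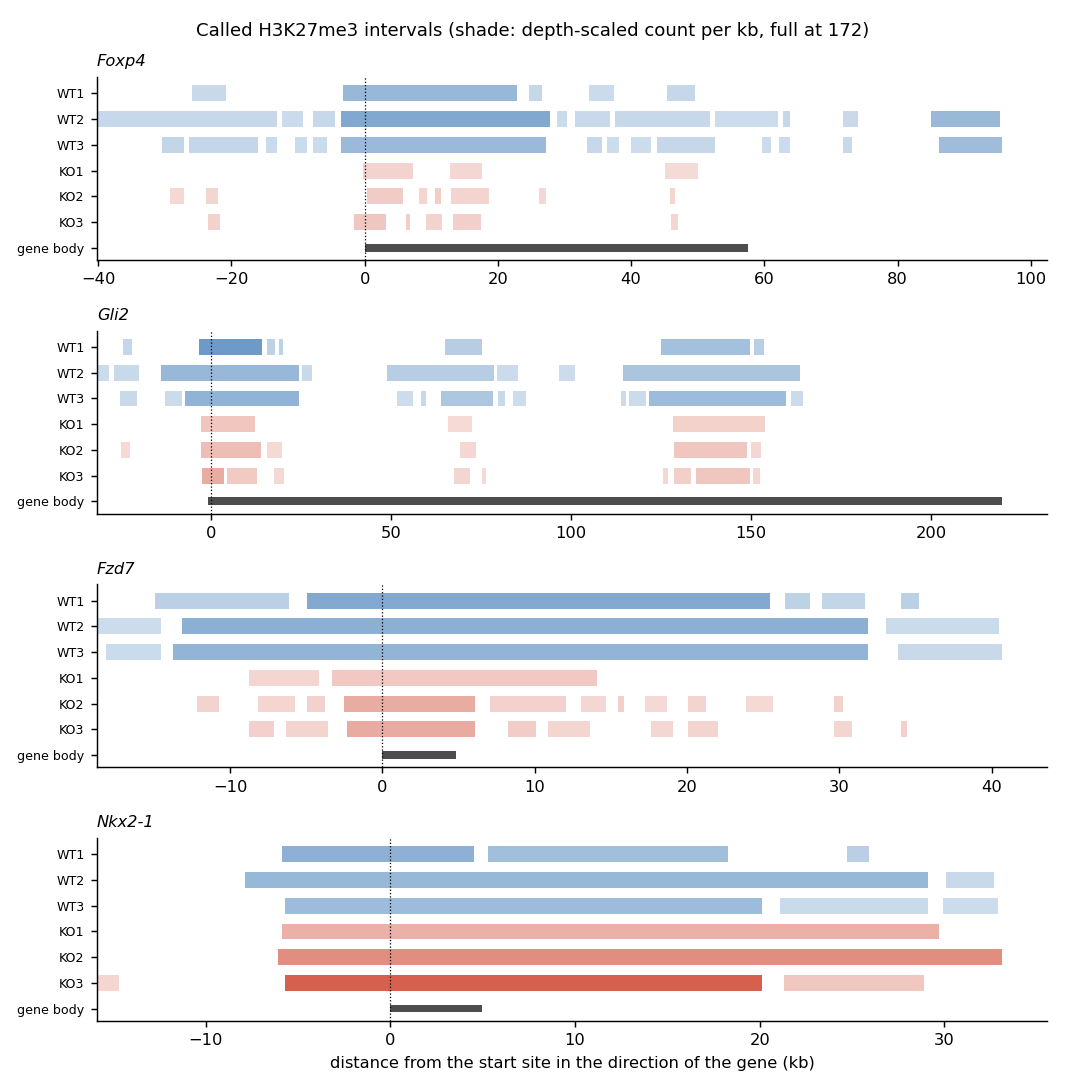
Called intervals of each library around 4 genes, by distance from the start site in the direction of the gene (x axis, kb). WT libraries are blue, KO libraries red, darker shades mean more depth-scaled counts per kb, and the grey bar is the gene body. The long WT blocks over Foxp4 and Fzd7 are short and split in KO, while over Nkx2-1 the blocks at the start site are darker in KO2 and KO3 than in WT, and that of KO1 is paler than that of WT1.

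Of the other Foxp genes on the list, Foxp1 had an interval in 3 WT lists and 1 KO list and Foxp2 in 3 WT and 2 KO lists, so neither was tested. The Foxp1 count was 43.1, 136 and 99.7 in WT and 0, 0 and 16.6 in KO, where 0 means no called interval.

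The Hedgehog pathway lost H3K27me3 at 5 of its 9 tested genes. Sonic hedgehog (Shh) binds the receptor Ptch1 with the co-receptors Boc, Cdon and Gas1, and the signal ends at the Gli transcription factors, of which Gli2 mainly activates and Gli3 mainly represses. Of 14 genes listed, the 5 that fell were Gli2, Gli3, Boc, Gas1 and Cdon, against 5.09% of all genes tested, and 0 rose. The median log2 change was -1.13, and -0.61 with TMM factors. These left 4 lower, against 2.54% of all genes, and made Shh higher. With 1 library left out 3 to 6 members were lower, and the count was 3 without WT2, without WT3 and without KO2. It was 6 without KO3, where 1646 of all 3420 genes were lower.

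Boc had 1444, 2283 and 2326 counts in WT and 285, 310 and 437 in KO. All KO libraries were far below WT (log2 change -2.56 ± 0.31, edgeR adjusted p = 4.2e-13). Gas1 stood at 1199, 1757 and 1648 in WT and 520, 865 and 716 in KO, without overlap (log2 change -1.13 ± 0.30, edgeR adjusted p = 0.0078). The Cdon count was 51.8, 240 and 228 in WT and 41.3, 35.9 and 123 in KO, so WT1 lay within the KO range, and its log2 change was -1.41 ± 0.44 (edgeR adjusted p = 0.03).

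Gli2 had counts of 3282, 4938 and 4669 in WT and 1013, 1536 and 1397 in KO. The groups did not overlap, and the log2 change was -1.71 ± 0.25 (SE; edgeR adjusted p = 4.2e-09). All 3 of its tested regions fell. The one at the start site changed by -1.60, the 2 within the gene by -3.37 and -1.5. The loss thus ran along the gene, and the 2 values inside it lay on either side of the start-site value. WT1 covered 58.8 kb of Gli2, above the 46.2 to 48.2 kb of the KO libraries.

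Gli3 had lower counts, 173, 306 and 266 in WT and 28.6, 14.9 and 48.5 in KO. The groups again did not overlap (log2 change -3.03 ± 0.47, edgeR adjusted p = 3.54e-08), and covered length fell from 10.8 to 27.4 kb in WT to 1.8 to 4.6 kb in KO. With covered length as an offset its log2 change was -0.25. For the Gli3 sum, then, nearly all of the difference lies in how much of the gene was called. Its start-site region kept more, with a log2 change of -2.43, or -0.85 with that offset. There the count per covered kb was 20.7, 17.1 and 22.4 in WT and 6.22, 8.26 and 20.1 in KO.

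The other members of the pathway did not pass the test. Gli1, a target gene of the signal, had a log2 change of -0.52 ± 0.30 with groups that did not overlap, and Hhip, an inhibitor that binds the ligand, had -0.24 ± 0.41. Shh had counts of 1306, 1708 and 1498 in WT and 1598, 2398 and 2592 in KO, which overlap at KO1 (log2 change 0.54 ± 0.27). Foxa2, an activator of Shh in the floor plate, had 0.02 ± 0.20 at a mean WT count of 11273. The receptor gene Ptch1 and the inhibitor gene Sufu lacked an interval in some list.

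**Figure D3:**
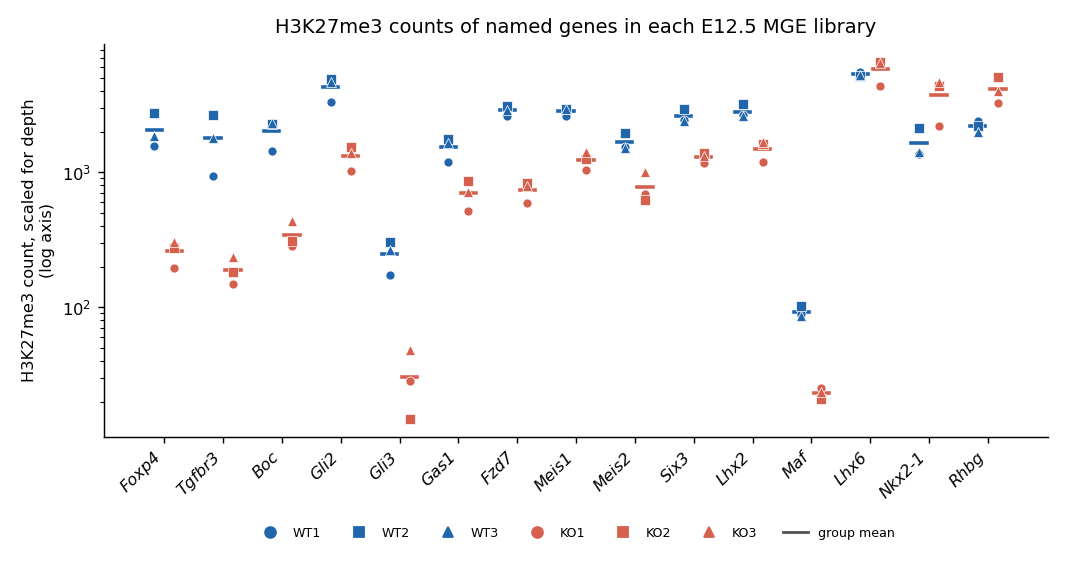
Depth-scaled H3K27me3 count (y axis, log) of 15 genes in each library, with WT in blue, KO in red and bars for group means. The groups do not overlap for any gene drawn but Lhx6. Nkx2-1 and Rhbg are the 2 with KO above WT.

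Nkx2-1, the homeobox gene that defines the MGE, changed in the other direction. It lies on chromosome 12, 56531935 to 56536908. Its count was 1361, 2131 and 1414 in WT and 2204, 4343 and 4679 in KO. KO1 lay just above WT2 and the other two KO libraries well above it. The log2 change was 1.19 ± 0.25 (SE; edgeR adjusted p = 0.00018). The covered length was similar in the groups, at 24.6, 39.6 and 36.8 kb in WT and 35.6, 39.2 and 33.4 kb in KO, while the count per covered kb was 55.3, 53.8 and 38.4 in WT and 61.9, 111 and 140 in KO. The gain was thus one of density and not of length. It missed the threshold without WT3 (adjusted p = 0.058, with 5.4e-15 to 1 over all alternatives, the highest with covered length as the only offset). Both groups carry the Cre allele by the cross. Whether that allele adds or changes Nkx2-1 sequence that reads can map to is not stated, and its part in the result was not tested.

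A region 46.1 kb from Nkx2-1, outside every gene window (chromosome 12, 56450201 to 56485800), also rose. It held 331, 619 and 467 counts in WT and 434, 1550 and 1294 in KO, so KO1 fell inside the WT range, and its log2 change was 1.20 ± 0.32 (SE; edgeR adjusted p = 0.0039). The nearby homeobox gene Nkx2-9 had 4102, 4143 and 3656 in WT and 2731, 4284 and 4254 in KO, which overlap (log2 change -0.08 ± 0.23). Pax9, the paired-box gene beyond it, had a log2 change of -0.10 ± 0.21. The increase was therefore seen at Nkx2-1 and the region near it and did not pass the test at these 2 genes.

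Among the MGE patterning factors, the transcription factors of MGE progenitors, 14 genes on 12 region sets were tested. Of these 1 fell (Six3), against 5.09% of all genes, and 1 rose (Nkx2-1), against 0.146%. All KO libraries lay above WT at 3, against 0.409% of all genes. These are Nkx2-1 and the pair Dlx1 and Dlx2, which share 1 region and so count as 1 measurement. The median log2 change of the class was 0.23, above the -0.54 of all genes, and 0.72 with TMM factors. These factors gave 4 higher genes and 0 lower, against 1.46% and 2.54% of all genes. With DESeq2's size factors 8 were higher and 0 lower, against 110 and 101 of all 3419 genes. Six3, a forebrain homeobox gene, had 2448, 2950 and 2398 in WT and 1175, 1377 and 1329 in KO, without overlap (log2 change -1.01 ± 0.27, edgeR adjusted p = 0.0078). Six3 was called in 3 of the 6 fits that leave out a library. Its covered length hardly differed (25 to 33.8 kb in WT and 27.2 to 28 kb in KO), so at Six3 it was the density that fell.

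The Dlx1 and Dlx2 pair, homeobox genes that drive GABAergic fate, share 1 region with counts of 3806, 3028 and 3060 in WT and 4094, 5338 and 5445 in KO. All KO libraries lay above WT, but the log2 change of 0.59 ± 0.23 missed the threshold (edgeR adjusted p = 0.093) and passed it with TMM factors, with DESeq2 and in 1 of the 6 fits that leave out a library. The Dlx5 and Dlx6 pair had 0.33 ± 0.21 with groups that overlap. Lhx8, a LIM-homeodomain gene of MGE-derived cholinergic cells, had -0.28 ± 0.27, Olig2 -0.15 ± 0.28 and Gsx2 0.49 ± 0.28.

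Lhx6, the LIM-homeodomain gene that acts downstream of Nkx2-1 in postmitotic MGE cells, had groups that overlap. Its count was 5529, 5189 and 5226 in WT and 4329, 6562 and 6457 in KO. The KO libraries lay on both sides of the WT libraries, and the log2 change was 0.12 ± 0.22 (edgeR adjusted p = 0.66). With DESeq2's size factors it was called higher (0.67, DESeq2 adjusted p = 0.0345), and with TMM factors it was not (0.62, edgeR adjusted p = 0.100). Among the 8 tested postmitotic MGE interneuron factors 1 fell, against 5.09% of all genes. That gene was Maf, a basic leucine zipper gene of interneuron precursors. Maf had 89.2, 103 and 86.3 counts in WT and 25.4, 21.1 and 23.6 in KO. The groups are tight and wide apart (log2 change -1.99 ± 0.43, edgeR adjusted p = 0.00031), at a level that corresponds to only 16 to 31 reads in the 4 shallowest libraries. Maf stayed lower whichever library was left out. Sox6, an HMG-box gene of the same list, had -0.05 ± 0.37 and did not pass.

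Zeb2, a zinc-finger gene of migrating interneurons on the same list, had an interval in every WT list and in no KO list. Its count was 89.2, 116 and 108 in WT. A count of 0 in KO means that no interval was called, not that the mark was absent. Sst, the somatostatin gene, was tested with 71.9, 97.1 and 93.4 in WT and 42.9, 28.5 and 58.3 in KO. Its groups did not overlap, but the log2 change of -1.04 ± 0.42 missed the threshold (edgeR adjusted p = 0.108).

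Regulators of the neighbouring ventral zones, the lateral and caudal ganglionic eminences (LGE and CGE), lost H3K27me3 at 3 of 11 tested genes, Ebf1, Meis1 and Meis2 (against 5.09% of all genes), and gained it at 0. Their median log2 change was -0.32, and 0.18 with TMM factors, so the sign of the median turns with the scaling. Meis1, a TALE homeobox gene, had 2626, 2922 and 2916 in WT and 1035, 1252 and 1417 in KO. The WT libraries agree within a narrow range far above KO (log2 change -1.19 ± 0.27, edgeR adjusted p = 0.00056). Both tested Meis1 regions fell, as did a region 69.6 kb from it outside gene windows (chromosome 11, 19089201 to 19109000), which changed by -2.62 ± 0.44 on the log2 scale. Meis2 had 1548, 1956 and 1522 in WT and 695, 621 and 1011 in KO without overlap (-1.11 ± 0.30, edgeR adjusted p = 0.0078). Ebf1, a helix-loop-helix gene of striatal differentiation, had a mean of 10315 ± 769 in WT and 5285 ± 776 in KO (SD, n = 3 each), also without overlap (-0.96 ± 0.21, edgeR adjusted p = 0.00043). With TMM factors Meis1 and Meis2 stayed lower, Ebf1 did not (-0.44), and Gsx2 and Sp9 were higher. Meis1 was called in 5 and Meis2 in 3 of the 6 fits without a library. The CGE genes Nr2f1, Nr2f2 and Prox1 had log2 changes of -0.10, -0.18 and -0.19 and did not pass.

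Among the regulators of the dorsal pallium, the cortical territory, 5 of 19 tested genes fell, against 5.09% of all genes, and 0 rose. They are Gli3, described above, and Lhx2, Emx2, Neurog1 and Cux1. Lhx2, a LIM-homeodomain selector of cortex, had 2672, 3172 and 2586 in WT and 1197, 1606 and 1666 in KO (log2 change -0.92 ± 0.26, edgeR adjusted p = 0.016). Neurog1, a proneural gene, had 7772, 7479 and 7180 in WT and 3458, 5684 and 4871 in KO (-0.68 ± 0.22, edgeR adjusted p = 0.04). Neither gene's groups overlap. With TMM factors only Gli3 of the 5 stayed lower. With 1 library left out 1 to 6 members were lower, the count being 1 without WT2, without WT3 and without KO2. It was 6 without KO3, where 1646 of all 3420 genes were lower. Pax6 (-0.21 ± 0.20), Neurog2 (-0.15 ± 0.21), Neurod2 (-0.15 ± 0.20) and Tbr1 (-0.15 ± 0.24), which mark the cortical lineage, did not pass, and the groups of these 4 overlap. The median of the list was -0.30, and 0.21 with TMM factors, so its sign turns with the scaling.

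**Figure D4:**
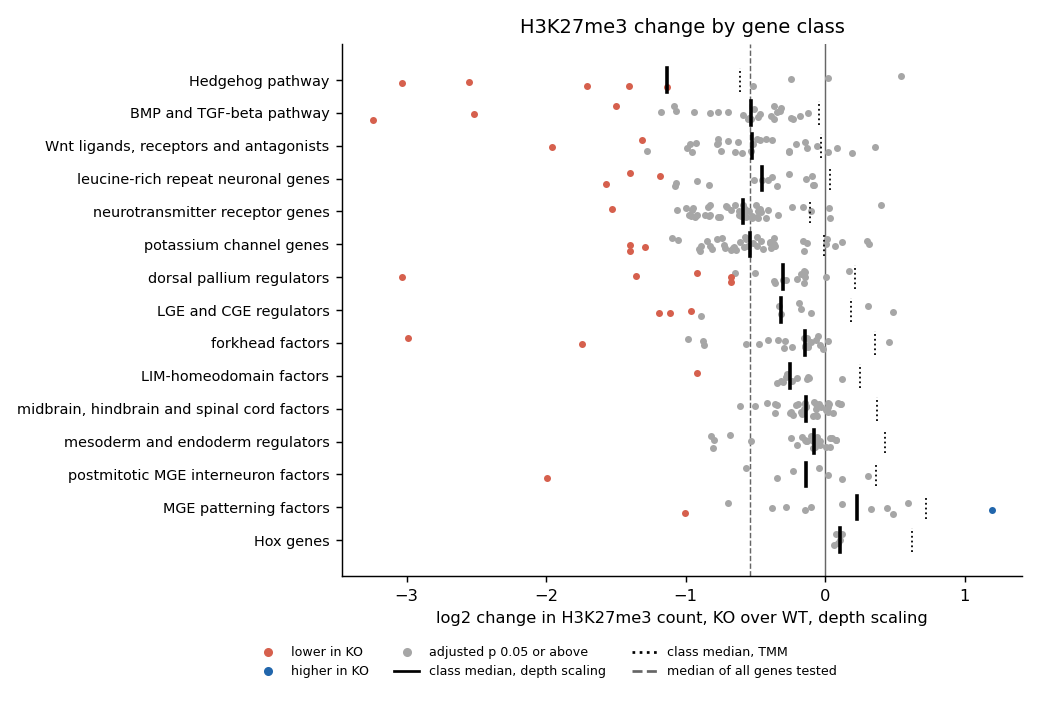
Log2 change, KO over WT (x axis), of the tested members of 15 gene classes, 1 point per distinct value, red where lower, blue where higher and grey where the test was not passed. Black bars are class medians (dotted with TMM factors), and the dashed line is the median of all genes. Of the classes drawn the Hedgehog pathway lies furthest to the left, with a median of -1.13.

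Signalling genes outside the Hedgehog pathway moved at a few members. Of 27 tested genes of the BMP and TGF-beta pathway 3 fell, Tgfbr3, Tgfbr2 and Inha, against 5.09% of all genes, and 0 rose, with a median of -0.53 beside -0.54 for all genes. Tgfbr3, which encodes the co-receptor betaglycan, had 935, 2641 and 1777 in WT and 148, 183 and 236 in KO. The lowest WT library was well above the highest KO library, and the log2 change of -3.24 ± 0.34 was the largest decrease among the genes tested (SE; edgeR adjusted p = 1.92e-18). Covered length of Tgfbr3 was 40.8, 101 and 69.2 kb in WT and 15.8, 11.2 and 13.2 kb in KO. Tgfbr2, the type II receptor gene, changed by -1.5 ± 0.44 and Inha, an inhibin subunit gene, by -2.52 ± 0.46, but WT2 held 266 of the Inha counts against 48.9 and 39.3 in the other two WT libraries, and without WT2 Inha missed the threshold (edgeR adjusted p = 0.414, the highest without 1 library). Tgfbr2 missed it without WT2, WT3, KO1 or KO2 (edgeR adjusted p up to 0.256). Without KO3 15 members were lower, in a fit that called 1646 of all 3420 genes tested lower.

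Of 32 tested Wnt genes 2 fell, the Frizzled receptor genes Fzd7 and Fzd6, a share near the 5.09% of all genes, and 0 rose. Only 1 was lower without WT2, WT3, KO1 or KO2. Without KO3 18 were, beside 1646 of all 3420 genes in that fit. Fzd7 had 2600, 3105 and 2886 in WT and 588, 831 and 795 in KO. The groups are compact and far apart (log2 change -1.96 ± 0.28, edgeR adjusted p = 1.63e-09). WT1 covered 43.6 kb of the Fzd7 region, WT2 and WT3 both 49.2 kb and the KO libraries 22 to 25.6 kb. The region also touches Gm973, whose lower count (-2.01) rests mostly on the same reads. Fzd6 changed by -1.31 ± 0.43 (edgeR adjusted p = 0.045) and was not called with TMM factors. Of the 21 tested FGF genes 0 passed in edgeR's test with depth scaling. The smallest p was that of Fgf10, a growth factor gene, at a log2 change of -1.07 ± 0.43 (edgeR adjusted p = 0.103).

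**Figure D5:**
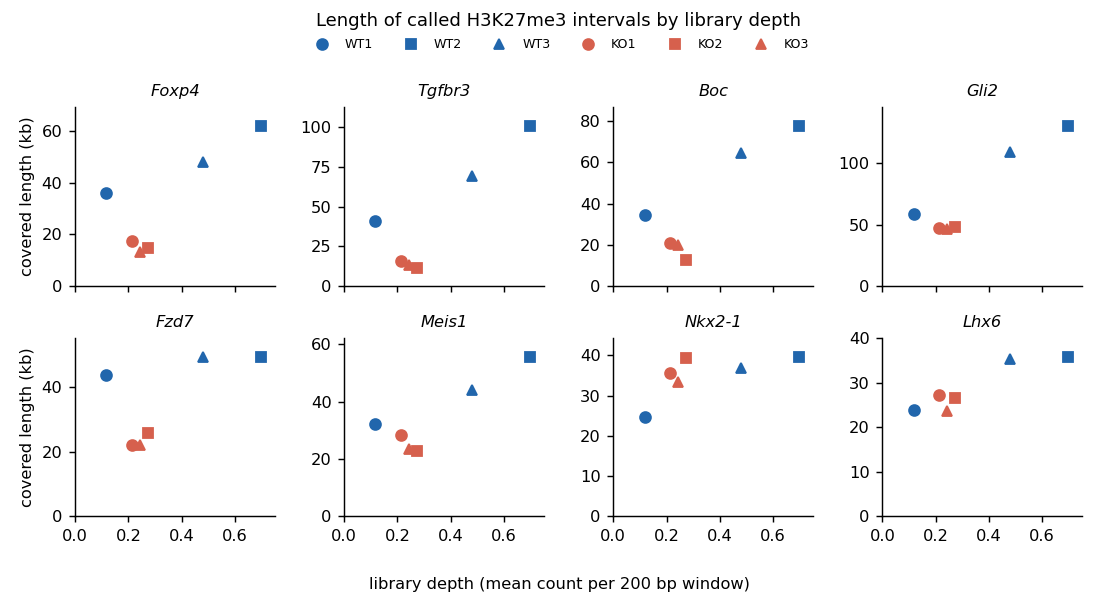
Covered length of called intervals (y axis, kb) of 8 genes against library depth (x axis, mean count per 200 bp window), with WT in blue and KO in red. For Foxp4, Tgfbr3, Boc, Gli2, Fzd7 and Meis1 the shallowest library, WT1, lies above every KO library, and for Nkx2-1 and Lhx6 it does not.

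Neuronal genes changed at single members. Of 17 tested leucine-rich repeat neuronal genes 3 fell, Lingo1, Islr2 and Lrrn2, against 5.09% of all genes, and 1 fell without WT2 or without WT3. Lingo1, an inhibitor of axon growth and myelination, had 1527, 3030 and 2324 in WT and 665, 645 and 1014 in KO without overlap (log2 change -1.57 ± 0.29, edgeR adjusted p = 7.09e-06), and its count per covered kb was if anything higher in KO, so with the length offset the change was 0.39. Islr2 had 2177, 2383 and 2229 in WT and 695, 1048 and 1240 in KO (-1.19 ± 0.28, edgeR adjusted p = 0.0014). Its covered length was 10.4 to 12.2 kb in WT and 9.8 to 10.6 kb in KO while the count per covered kb fell from 209, 195 and 192 to 70.9, 103 and 117. Lingo1 and Islr2 thus differed in kind, 1 in length and 1 in density.

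Of 23 tested axon guidance and migration genes 1 fell, against 5.09% of all genes, and 1 rose, against 0.146%. Slit3, a secreted repellent, had 851, 1657 and 1463 in WT and 273, 305 and 528 in KO without overlap (log2 change -1.85 ± 0.33, edgeR adjusted p = 2.45e-06). Its mean count per covered kb was 15.2 in WT and 15.1 in KO, with libraries that overlap. Ephb1, an Eph receptor gene, had 23, 63.8 and 18.2 in WT and 85.9, 32.2 and 297 in KO, and its log2 change of 1.90 ± 0.44 (edgeR adjusted p = 0.00097) comes mostly from KO3, with KO2 inside the WT range. Among 48 tested potassium channel genes 3 fell, Kcnq1, Kcnk1 and Kcne3, with a class median of -0.54, and Kcnq1 was also the only one of 12 tested imprinted genes to pass (-1.40 ± 0.29). Of 22 calcium and sodium channel genes Cacna2d2 fell, and of 47 neurotransmitter receptor genes Grm2 fell. The shares in these 3 classes lie near the 5.09% of all genes. Without WT2 0 genes of these 3 classes and 0 imprinted genes were lower. Without KO3 23 potassium channel, 7 calcium and sodium channel, 27 receptor and 6 imprinted genes were. That fit called 1646 of all 3420 genes lower.

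Genes of other germ layers and body regions had 0 calls in edgeR's test with depth scaling. All 39 Hox genes were tested, on 5 region sets, with log2 changes of 0.07 to 0.12 and a median of 0.11, which was 0.63 with TMM factors and 0.67 with DESeq2, again with 0 called. The Hoxa genes shared a region with 94385, 66576 and 66493 counts in WT and 74720, 97301 and 72980 in KO, which overlap. Gata2 and the Hoxa genes, which share 1 region, had the most counts per covered kb in WT, with means of 416 in WT and 375 in KO for Gata2 and 414 and 448 for Hoxa3. Of 36 tested midbrain, hindbrain and spinal cord factors 0 passed, with a median of -0.13 and the smallest p at Pax8 (-0.61) and Pitx3 (-0.50). Of 28 mesoderm and endoderm regulators 0 passed, with a median of -0.08 and the smallest p at Meox2 (-0.80) and Mesp1 (-0.82). With TMM factors these medians were 0.37 and 0.43, beside -0.04 for all genes, again with 0 called, and the difference from other genes was not tested. Genes of other cells that the dissection could hold showed 0 calls too with depth scaling and all libraries. Of 10 tested blood, vascular and microglial genes the smallest p was that of Runx1 (-0.58 ± 0.25), and of 11 glial and oligodendrocyte genes that of Gfap (-1.11 ± 0.43, edgeR adjusted p = 0.098). In the glial class 1 gene was higher with TMM factors and 1 with DESeq2, against 50 and 110 of all 3419 genes. Without WT1 1 glial gene was lower, against 231 of all 3632 genes. Without KO3 6 blood, vascular and microglial genes and 1 glial gene were lower, against 1646 of all 3420 genes. The summed level of such a list is a level of the repressive mark and does not measure how many of those cells were present.

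The remaining classes gave few calls. The forkhead class, 28 genes tested, held 2 lower genes, Foxp4 and Foxo3 (-1.74 ± 0.39). The 12 LIM-homeodomain genes and the 12 genes of the Irx and sine oculis homeobox families held 1 each, Lhx2 and Six3. Beside these stands the 5.09% of all genes. The Sox factors (10 tested), the Zic and Gbx factors (6), the Polycomb and antagonist genes (10), the CDK inhibitors and D cyclins (7), the neuropeptides (13), the GABA machinery and calcium-binding markers (12), the cholinergic genes (8) and the clustered protocadherins (21 genes on 4 region sets) had 0 calls in edgeR's test with depth scaling. The protocadherins had a median of 0.60, and 1.05 with TMM factors, with groups that overlap. The median was 0.16 without KO3, and with DESeq2's size factors 19 of the 21 were called higher. In the GABA machinery class 1 gene was called higher with TMM factors and 4 with DESeq2. Of all 3419 genes tested 50 (1.46%) were higher with TMM factors and 110 with DESeq2. The members of smallest p were Sox7 (-0.48) and Sox18 (-0.55), Zic2 with Zic5 (-0.43), Kdm6b (-0.87) and Pcgf5 (-0.74), Ccnd2 (-0.86) and Cdkn1c (-0.99), Crhbp (-0.95, after Sst), and Tac1 (-0.83) and Kcnc2 (-0.74), none past the threshold. Ngfr, the neurotrophin receptor gene of basal forebrain cholinergic neurons, came nearest in these classes with -0.82 ± 0.28 (edgeR adjusted p = 0.056).

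Some genes outside the classes were among the 15 lower genes of smallest p. Iqch had 1217, 2755 and 1851 in WT and 140, 255 and 276 in KO (-3.12 ± 0.33), and Smyd3, a lysine methyltransferase gene, 958, 2493 and 1951 in WT and 204, 369 and 451 in KO (-2.40 ± 0.32). Kirrel3, a synaptic adhesion gene, had 325, 1439 and 955 in WT and 105, 141 and 184 in KO (-2.67 ± 0.36), where WT1 is much nearer to KO than the other two WT libraries are. Itm2b (-2.92), Tenm2 (-2.52), Mideas (-2.77), which shares its region with Gm46319, and Vgll4 (-2.09) had lower counts, and none of their groups overlap. Vgll4 had more counts per covered kb in KO, with a log2 change of 0.40 under the length offset. Rhbg, an ammonium transporter gene, was the second of the 2 genes that rose without overlap. It had 2379, 2195 and 1981 in WT and 3255, 5071 and 3996 in KO (0.91 ± 0.24, edgeR adjusted p = 0.0068). Rhbg was called in 3 of the 6 fits without a library. Most of its count lay in a region of 58.4 kb that holds no listed start site and changed by 0.97. Its other region did not rise (-0.26, with groups that overlap). Thsd4 (1.16) and Ahi1 (1.40), the other two that rose, had groups that overlap.

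At the level of regions, 337 of 3236 tested union regions fell (10.4%) and 11 rose (0.34%), and with TMM factors 144 fell (4.45%) and 96 rose (2.97%). All KO libraries lay below all WT libraries at 33% of the regions and above them at 0.649%. Regions that hold a listed start site fell at 144 of 1788 (8.05%), regions in a gene window without one at 120 of 1031 (11.6%) and regions outside gene windows at 73 of 417 (17.5%). By width, 7.47% of regions up to 5 kb fell, 7.26% from 5 to 10 kb, 12.8% from 10 to 20 kb, 15.8% from 20 to 40 kb and 13.5% above 40 kb. The median log2 changes ran the other way. They were -0.57 up to 5 kb, -0.38 from 20 to 40 kb and -0.17 above 40 kb, and -0.57 at start sites against -0.48 outside. With TMM factors 35 outside regions were lower and 31 higher. From 20 to 40 kb 47 were lower and 34 higher, and up to 5 kb 2 and 2. In all, 24 genes had 2 or more lower regions. Lrmda had 5 of 10, and Gli2, Ebf1, Kcnq1, Rora and Clybl 3 each, while Foxp4, Meis1, Meis2, Lhx2, Tgfbr3 and Smyd3 had 2 of 2.

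The lower regions of smallest p outside gene windows lay 14.1 to 220 kb from the nearest gene. The first (chromosome 3, 66734001 to 66751800) is 220 kb from Shox2 and changed by -3.28 ± 0.47. Others lie 14.1 kb from Lif (chromosome 11, 4286601 to 4325600, -2.06 ± 0.31), 43.1 kb from Nepro (chromosome 16, 44650401 to 44681200, -2.32 ± 0.37) and 14.7 kb from Bub3 (chromosome 7, 131586601 to 131610200, -2.24 ± 0.38). The groups do not overlap at any of these 4. The Lif-proximal region had 1447, 1574 and 1685 counts in WT and 361, 393 and 373 in KO, among the tightest separations in the comparison. Of the 5 higher ones, the one near Nkx2-1 had groups that overlap, and those nearest to Rhcg (0.92 ± 0.31), Pou3f1 (1.27 ± 0.40), Car8 (1.60 ± 0.43) and Bambi (1.24 ± 0.42) did not. With 1 library left out these regions were called in 2, 3, 4 and 2 of the 6 fits in that order, and the one near Nkx2-1 in 3.

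Presence of an interval moved the same way. There were 36 genes with an interval in every WT list and in no KO list, and 0 with the reverse. Sntb2 (77.7, 355 and 204 counts in WT), Zeb2, Ccl1, Tmc2 and Insc had the most counts of the 36, while most held under 50. These genes were not tested, since an interval that was not called has no count. Without WT1, the shallowest library, the count was 523, and without KO3 it was 146. WT2 and WT3 are deeper than every KO library, and the part of depth in this count was not tested.

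Measures of whole libraries were less clear. With 3 against 3 libraries the exact two-sided permutation test cannot go below p = 0.1. The mean log2 count of shared regions was 7.92 ± 0.30 in WT and 7.35 ± 0.32 in KO (SD, n = 3 each; exact permutation p = 0.2), and shared regions covered 35.8 ± 9.14 Mb in WT and 28.2 ± 1.20 Mb in KO (exact permutation p = 0.4). Reads in autosomal intervals over depth were 9.09, 9.74 and 8.82 M in WT and 6.18, 8.39 and 8.34 M in KO, without overlap (exact permutation p = 0.1). Counts per covered kb of shared regions were 87.4 ± 25.3 in WT and 89.7 ± 17.6 in KO (exact permutation p = 1).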

How the data were processed

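The deposited files hold 1 interval list per library in BED form without a header. Cutadapt, Bowtie2, SAMtools, Picard, deepTools and SICER and the build GRCm38/mm10 are named in the submitters' processing notes, and their settings and versions are not given in the sources used here. The authors' lists give a whole-number read count per interval, not normalised, and a score, which in single-window intervals of the deposited lists equals the negative natural log of a Poisson probability of the count. Depth per library was recovered from that relation. Autosomal intervals of the 6 lists were merged to 12244 union regions, and 3236 with an interval in all 6 lists were tested. Library sizes were set in proportion to depth. Fits used edgeR 4.0.16 (quasi-likelihood, Benjamini-Hochberg over all features, adjusted p below 0.05), with DESeq2 1.42.0 as an alternative. The SE of a log2 change was its absolute value over the square root of edgeR's F statistic. The scripts were tested on simulated data: of 200 genes changed 2-fold among 3419, 40.5% were recovered with 8 false calls, and of 200 regions among 3236, 25% with 4 false calls. The simulated counts were drawn from each feature's mean, scaled for depth. No intervals were called in them, so these numbers do not cover calls that depend on depth or covered length. Genes came from RefSeq's GRCm38 table. Named genes were Nkx2-1, Lhx6, Sst and Ezh2, the 15 of smallest p per direction among called genes whose groups do not overlap, up to 4 called members per class (or the 2 of smallest p where none was called), the 5 outside regions of smallest p per direction and the 5 genes of highest counts per covered kb in WT. Other names in the text are members of the classes given with their values, chosen after their values were seen. The members and gene lists were chosen with earlier results of these data known. Alternatives were other scalings, filters, windows, covered length as an offset, a replicate block and each library left out. Because the lists used here hold called intervals alone, reads outside them are not counted, which removes weak signal from shallow libraries.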

Additional observations from a re-analysis of the deposited data

How the results depend on the processing

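The scaling, the covered length and single libraries moved the counts of calls by over 1.5 times, and the causes were not tested. With TMM factors 144 regions were lower and 96 higher (median -0.040) and 87 genes lower and 50 higher (median -0.041). With DESeq2 and its size factors 144 regions were lower and 147 higher (median 0.022, a turn of sign) and 101 genes lower and 110 higher (median 0.023, a turn of sign). With covered length as an offset 2 regions were lower and 0 higher (median -0.13), and 0 genes lower and 0 higher (median -0.092). With the offset and TMM factors together, an alternative chosen after seeing the data, 53 regions were lower and 43 higher (median 0.019), and 12 genes lower and 8 higher (median 0.0055), so both medians turned. Among features whose covered length differed by at most 1.5 times between libraries, 10 regions of 422 were lower and 1 higher, and 2 genes of 458 lower and 1 higher (median -0.19). With an interval in at least 4 of 6 lists 85 regions were lower and 0 higher and 66 genes lower and 0 higher. Without a filter the median of regions was -0.96 and 9 genes were higher, and with all chromosomes 16 genes were higher. Leaving out 1 library gave 87 to 1544 lower and 1 to 26 higher regions, and 47 to 1646 lower and 0 to 13 higher genes (1646 without KO3). The difference in counts per covered kb, KO minus WT, was 2.33 in all libraries and -6.54 to 16.4 with 1 library left out, and it turned negative without WT2 (-6.54), WT3 (-3.37), KO2 (-2.94) or KO3 (-2.44). Genes with an interval in every WT list and no KO list numbered 36 to 523 and those with the reverse 0 to 14 with 1 library left out, and 72 and 8 among the highest-scoring intervals, an alternative also chosen after seeing the data. With the replicate block 625 regions were lower and 19 higher, and 224 genes lower and 5 higher. The numbers share no stated pairing: the correlation of same-numbered deviations was 0.232, 0.0548 and 0.0814, and WT2 correlated best with KO3 (0.155) and WT3 with KO2 (0.0955).

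The sign turned at some named genes and regions, and the causes were not tested. With the length offset alone and with TMM factors added, log2 changes were 0.40 and 0.45 for Vgll4, 0.34 and 0.41 for Cux1, 0.027 and 0.29 for Pax8, 0.00012 and 0.13 for Slit3, 0.39 and 0.56 for Lingo1, 0.26 and 0.39 for Foxo3, 0.099 and 0.22 for Kcne3 and 0.15 and 0.23 for Cacna2d2. With both together Runx1 was at 0.17, Tgfbr2 at 0.0048, Lrrn2 at 0.065 and Gata2 at 0.021. A Foxp4 region within the gene was at 0.057, and the Vgll4 region at 0.40 and 0.52. With TMM factors and DESeq2 in turn, Sox7 was at 0.0082 and 0.065, Zic2 and Zic5 at 0.078 and 0.13, Gata2 at 0.41 and 0.46 and a Rhbg region at 0.26 and 0.33. With DESeq2 Pitx3 was at 0.043 and Sox8 at 0.059. With 1 library left out, Hoxb8 and Hoxb9 ranged from -0.017 (without KO2) to 0.31, Hoxa3, Hoxa4, Hoxa6 and Hoxa13 from -0.038 (without KO2) to 0.30, and Gata2 from -0.17 to 0.076 (without WT1). Depth sets the limit for weak intervals: a gene that lacks an interval in a shallow list was not tested. Simulated 2-fold changes were recovered at 40.5% of genes, in a simulation without interval calling.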

Other observations

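The share of intervals on chromosome X, which the comparison left out, differed between libraries, with WT1 and WT2 far below WT3 and the KO libraries. It was 1.46%, 1.05% and 21.0% in the WT libraries and 21.2%, 26.9% and 23.1% in the KO libraries. The share of reads on X was 0.496%, 0.557% and 6.05% in WT and 6.23%, 7.30% and 5.18% in KO. No list held an interval on Y. With all chromosomes in the fit 16 genes were higher in KO in place of 5. Because WT1 and WT2 stand apart from every KO library on X, genotype and this library difference cannot be fully told apart in that fit. The cause of the difference was not tested.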
